A study of Homo sapiens with 6 samples.

Results

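ERBB2, which encodes the receptor tyrosine kinase HER2, and EGR1, an immediate early transcription factor, were described in H1975 EV and H1975 S310F cells. They are 2 of the 107 genes in the deposited table and were picked by name, with the differences between the groups already known. The table was itself a selection that the authors made on this contrast. The difference between S310F and EV cells is therefore given below as a description, with no p-value. H1975 is an established line of human lung adenocarcinoma whose EGFR is mutated. EV cells carried the empty vector, and S310F cells stably expressed HA-tagged human HER2 with serine 310 replaced by phenylalanine, after lentiviral infection and puromycin selection. The medium was RPMI 1640 with serum in both groups, and no drug is named for the sequenced cells. RNA-seq covered 3 EV and 3 S310F samples, with no cells expressing wild-type HER2, so the amount of HER2 and its mutation cannot be told apart. The replicates are not stated to come from separate cultures, so their spread may be technical.

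HER2 has no known ligand of its own and signals by pairing with other receptors of its family, EGFR and HER3 among them. The paired receptors activate the RAS-ERK cascade and the PI3K-AKT arm. ERK phosphorylates ternary complex factors, which bind the EGR1 promoter together with serum response factor at CArG boxes, and EGR1 transcription starts within minutes without new protein synthesis. For this reason the EGR1 transcript is widely read as an output of ERK activity. Its product is a zinc finger protein that binds GC-rich DNA and induces its own corepressor NAB2, and the transcript is short-lived.

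Both genes are shown here at the position that links them to the experiment. For ERBB2 this is the codon changed in the S310F construct. In GENCODE release 29 on GRCh38, codon 310 of the transcript ERBB2-201 lies in exon 8 of 27, on the plus strand of chromosome 17 from 39711954 to 39711956. The reference codon is TCC, for serine. The stretch below gives codons 300 to 320 of the reference coding sequence, 63 bases from exons 7 and 8, with codon 310 in capitals. The deposited values do not separate reads of the construct from those of the cells' own ERBB2.
ERBB2 codons 300 to 320: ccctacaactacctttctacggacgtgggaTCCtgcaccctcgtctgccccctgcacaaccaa

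For EGR1, the promoter is shown because the ERK-responsive elements lie there. The sequence is from RefSeq on GRCh38.p14, chr5:138465229-138465478 on the plus strand, the 250 bases before the transcription start at 138465479, and 68.4% of its bases are G or C. CArG boxes, the cores of serum response elements, are in capitals.
EGR1 promoter: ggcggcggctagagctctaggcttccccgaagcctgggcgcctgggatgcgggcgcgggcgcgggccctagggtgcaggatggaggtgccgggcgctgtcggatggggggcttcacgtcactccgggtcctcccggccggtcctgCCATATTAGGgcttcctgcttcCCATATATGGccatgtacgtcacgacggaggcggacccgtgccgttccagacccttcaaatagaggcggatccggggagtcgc

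The 2 CArG boxes run from -105 to -96 and from -83 to -74 relative to the start. Both strands of the window from 250 bases before to 50 after the start were searched, and at least 1 CArG box is present in 1.29% of the 35116 RefSeq promoters of that length, with 2 or more in 0.0313%. The EGR1 binding site GCGNGGGCG occurs once in the EGR1 window, from -198 to -190, and in 9.43% of all promoters. Neither CCGGAA, a form of the ETS site (17.2% of all promoters), nor the SP1 box GGGCGG (45% of all promoters) has a match in the EGR1 window. The full cyclic AMP response element TGACGTCA (1.85% of all promoters) has none either. This says only that these letters are not there. Other forms of the ETS site were not searched, so ETS sites are not called absent from this promoter. The ERBB2 window of the same table starts a longer transcript, 11986 bases before the start of ERBB2-201. It holds CCGGAA at 2 positions and none of the other 4 motifs.

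Values are normalized read counts, the reads of a gene over the size factor of the sample. Every value was a whole multiple of the worth of 1 read within 0.01 of a read, and this worth lay between 0.919 and 1.09 in the 6 samples, so reads per gene could be recovered. Library totals are unknown, since the table holds selected genes. Replicates of a group differed by more than counting noise. S310F replicate 3 stood farther from the other S310F samples (chi-square per degree of freedom of 17.1 and 19.2 over the 107 genes) than any other pair of replicates (2.75 to 5.79), and results that rest on it are also given without it. The lung identity of the cells could not be checked, as none of 11 lung epithelial markers and none of 11 leukocyte, endothelial and fibroblast markers is in the table.

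ERBB2 (ENSG00000141736, chromosome 17, 39687914 to 39730426, plus strand) was far higher in S310F than in EV cells. Its normalized read count was 847, 857 and 760 in the EV samples and 15074, 13753 and 16366 in the S310F samples, in order of replicate number. The means were 821 ± 53.0 and 15064 ± 1306 (SD, n = 3 each), and the lowest S310F sample was 16.1 times the highest EV sample. In bulk RNA a higher share of expressing cells and more RNA per cell cannot be told apart. These values rest on 740 to 889 reads in each EV sample and on 14069 to 16396 reads in each S310F sample. The log2 difference was 4.19 (SE 0.204, n = 3 each), the largest of the 107 genes. This SE, like those below, is the moderated one from limma, which also draws on the variances of the other listed genes. With a mean-variance trend it was 0.108 for ERBB2. ERBB2 made up 2.86% to 3.28% of all listed normalized counts in EV samples and 42.1% to 45.5% in S310F samples.

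EV cells hold no HER2 construct, so none of their ERBB2 reads come from one. Per kilobase of exon, its level in EV cells was 79.6 ± 5.13 (SD, n = 3), against a median of 24.0 over the listed genes, and ranked 14 of 107. In S310F cells it was 1460 ± 127 (SD, n = 3) per kilobase, which ranked 2. The exon length used, 10321 bases, joins 22 annotated transcripts. The same ERBB2 values divided by the 4545 bases of ERBB2-201 gave 181 ± 11.7 in EV and 3314 ± 287 in S310F cells per kilobase (SD, n = 3 each). Reads from the other exon bases were not taken out for this. Of the ERBB2 exon bases, 7.41% are overlapped by PGAP3 and MIEN1 on the other strand, and 4.05% of an ERBB2 transcript of 4792 bases aligns to PGAP3 at 95% identity or more. How far reads of these neighbours enter the ERBB2 value was not tested.

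EGR1 (ENSG00000120738, chromosome 5, 138465490 to 138469315, plus strand) was also higher in S310F than in EV cells, with no overlap of the samples. Its normalized read count was 138, 88.6 and 81.2 in EV replicates 1 to 3, a mean of 103 ± 30.9 (SD, n = 3). In S310F replicates 1 to 3 it was 367, 409 and 310, a mean of 362 ± 49.7 (SD, n = 3). The S310F mean was 3.53 times the EV mean, and the lowest S310F sample was 2.24 times the highest EV sample. The log2 difference was 1.84 (SE 0.263, n = 3 each), which ranked 9 among the 107 genes from the highest and 18 by size. EGR1 has 1 annotated transcript of 3138 bases, no exon base overlapped by another gene, and no stretch of at least 100 bases that aligns to another gene at 95% identity or more.

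**Figure D1:**
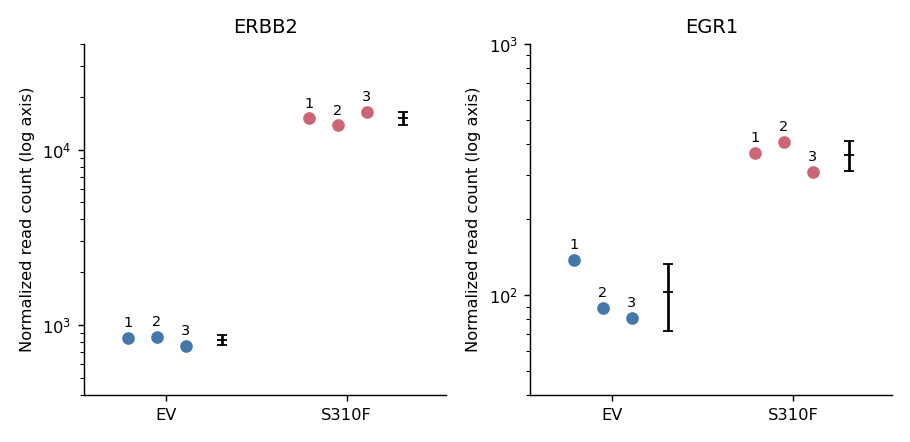
Normalized read count of ERBB2 (left) and EGR1 (right) on log axes with different ranges. Points are samples, numbered by replicate, and the black bar beside each group is its mean ± SD (n = 3). For both genes the S310F points lie above all EV points, and EV replicate 1 (138) is set apart from the other EV samples (88.6 and 81.2) for EGR1 and not for ERBB2.

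Per kilobase of exon, EGR1 was at 32.7 ± 9.83 in EV and 115 ± 15.8 in S310F cells (SD, n = 3 each), which ranked 39 and 11 of the 107 genes. EGR1 was thus below ERBB2 per kilobase in both groups.

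Both members passed the call used across the table, an adjusted p under 0.05 by limma and a log2 difference of at least 1 in size. Of the 107 genes, 37 were called higher (34.6%) and 66 lower (61.7%) in S310F cells. The groups did not overlap for 39 genes with higher (36.4%) and 66 genes with lower (61.7%) S310F values. The table was chosen by this contrast, so nothing is read from the members being among them. With the samples rescaled so that the listed genes other than ERBB2 had equal totals, 41 genes were called higher and 26 lower, and the median log2 difference of the listed genes moved by 0.43, from -1.12 to -0.69. Under this rescaling the differences were 4.64 for ERBB2 and 2.28 for EGR1. Dividing each sample by a single number shifts all genes nearly alike, so their margin over the median could hardly change and nothing is read from it.

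**Figure D2:**
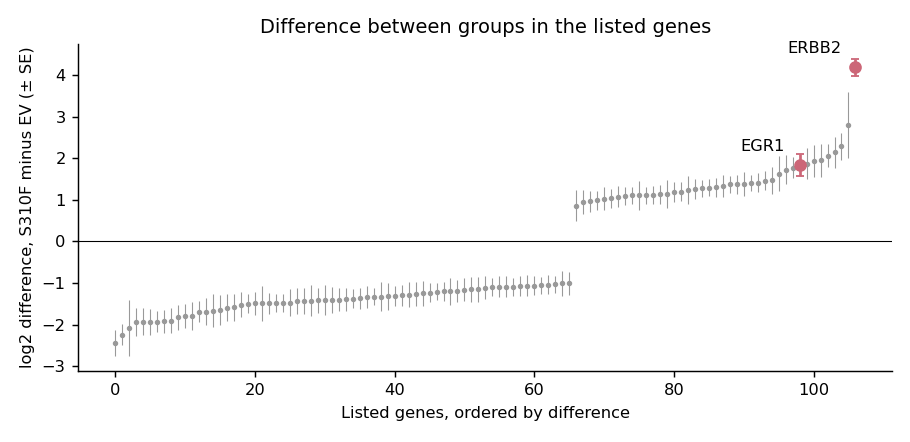
Log2 difference (S310F minus EV, on log2(value + 1)) of the 107 listed genes in increasing order, with bars of 1 SE. ERBB2 (4.19) is the highest and EGR1 (1.84) the 9th from the top; the gap around 0 is there because the authors listed only genes past a fold limit.

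The EGR1 difference depended most on EV replicate 1. Without it the log2 difference was 2.07, and with any of the other 5 samples left out it lay between 1.69 (without EV replicate 3) and 1.95 (without S310F replicate 3). EV replicate 1 did not stand high in general, since it was the highest EV sample for 39 of the 107 genes and the lowest for 32. For ERBB2 the difference stayed between 4.13 (without S310F replicate 3) and 4.26 as each sample was left out.

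The spread of the members is given for each group, and 3 samples per group do not settle whether it differed between the groups. In EV cells the coefficient of variation of EGR1 was 30.1%, where counting error alone gives 9.87%, which ranked 95 of the 107 genes from the lowest. EGR1 replicate 1 was 3.29 and 3.81 counting SDs above replicates 2 and 3, which were 0.575 counting SDs apart. In S310F cells its coefficient of variation was 13.7%, against 5.23% from counting error and a median of 27.3% over the listed genes. EGR1 ranked 14 of 107 by level there, so most listed genes had lower values and more counting error. Relative to its own counting error, its variation was 2.62 times as large, which ranked 71 from the lowest, above the median of 2.11. The same ratio for EGR1 was 3.05 in EV cells. ERBB2 varied by 6.45% in EV cells, against 3.49% from counting. In S310F cells its 8.67% was 10.6 times the 0.815% that counting gives, so at this depth the differences between its S310F replicates were far larger than counting error. Counting error here takes reads as independent and covers no other source.

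**Figure D3:**
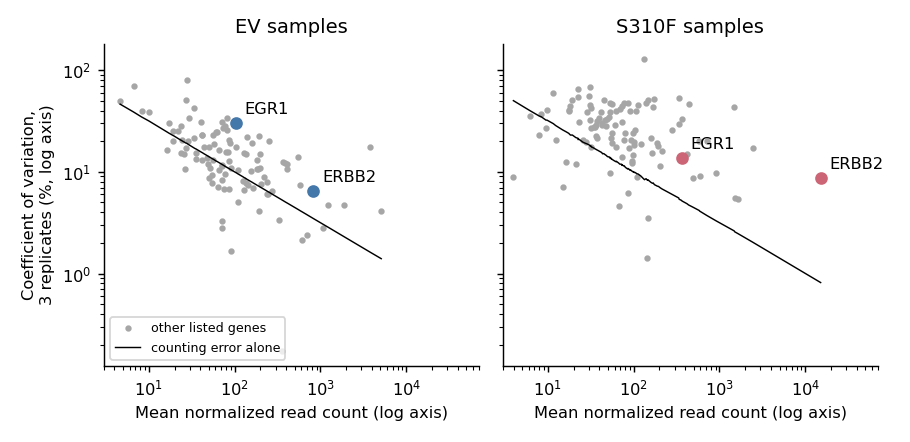
Coefficient of variation over 3 replicates (%) against the mean normalized read count, both on log axes, in EV (left) and S310F samples (right). Grey points are the other listed genes and the line is the variation that counting error alone gives; EGR1 lies well above the line in EV samples (30.1% against 9.87%) and so does ERBB2 in S310F samples (8.67% against 0.815%).

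Whether EGR1 follows the level of ERBB2 was examined within the S310F samples, where the design gives 3 points and neither a correlation nor a test. ERBB2 was lowest in replicate 2 (13753), intermediate in replicate 1 (15074) and highest in replicate 3 (16366). EGR1 ran in the opposite order, at 409, 367 and 310 in the same samples. No pair of S310F replicates with more ERBB2 had more EGR1. From replicate 2 to replicate 3, ERBB2 was 19.0% higher, 14.8 times the counting SD, and EGR1 differed by -24.2%, 3.64 times the counting SD. Without replicate 3 a single pair is left. In it, going from replicate 1 to replicate 2, ERBB2 differed by -8.76% and EGR1 by 11.4%, and the EGR1 step of 1.54 counting SDs was not resolved at this depth.

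Other listed genes also ran opposite to ERBB2. Of the other 105 listed genes, 19 ran exactly opposite to ERBB2 in the S310F samples and 16 ran exactly with it. S310F replicate 3, the sample set apart, was the highest S310F sample for 57 of the 107 genes, ERBB2 among them, and EGR1 was lowest in it. The part that the scaling of this sample has in the order was examined with the recovered reads before any size factor. These were 16396, 14069 and 14955 for ERBB2 and 399, 418 and 283 for EGR1 in replicates 1 to 3. On that scale and after the rescaling to equal totals, EGR1 kept its order, ERBB2 was higher in replicate 1 than in replicate 3, and 1 of the 3 pairs agreed. Only the order of ERBB2 in replicates 1 and 3 thus changed with the scale. On each scale replicate 2 had the least ERBB2 and the most EGR1, and replicate 3 had the lowest EGR1. Recovered reads carry the depth of the library, and the equal totals rest on genes chosen by this contrast. These scales therefore cannot decide which order of replicates 1 and 3 holds.

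**Figure D4:**
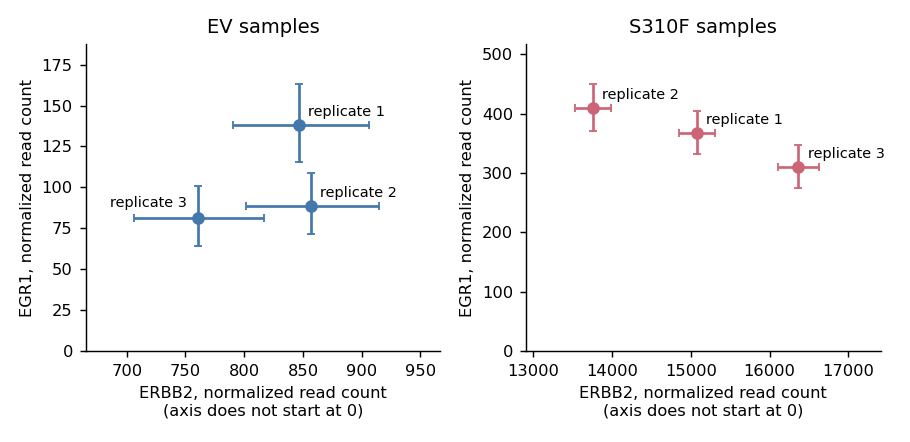
EGR1 against ERBB2, both as normalized read counts, in EV (left) and S310F samples (right), with 1 labelled point per replicate and bars for the 95% Poisson interval of the reads. In S310F samples the sample with the least ERBB2 (13753) has the most EGR1 (409) and that with the most ERBB2 (16366) the least EGR1 (310), and in EV samples replicate 1 has the most EGR1 (138); the horizontal axes do not start at 0.

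In EV samples, which hold no HER2 construct, 2 of the 3 pairs agreed in order. EV replicates 1 and 2 had nearly the same ERBB2 value (847 and 857, 0.237 counting SDs apart) and differed in EGR1 (138 and 88.6). EV replicate 3 was lowest for both genes, but its EGR1 value (81.2) was 0.575 counting SDs from that of replicate 2. Of the agreeing pairs, that of replicates 2 and 3 therefore rests on an EGR1 step not resolved at this depth.

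The ratio of both genes within a sample is free of the size factors. The EGR1 value was 16.3%, 10.3% and 10.7% of the ERBB2 value in the EV samples and 2.43%, 2.97% and 1.89% in the S310F samples, in the same order and not corrected for length. Its mean was 12.4% ± 3.34 in EV and 2.43% ± 0.539 in S310F samples (SD, n = 3 each). Across the groups ERBB2 thus differed far more than EGR1, and the difference in EGR1 was not in proportion to that in ERBB2.

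Few other genes of the pathway could be compared, since a gene outside the table was not analysed here. Of 15 genes for ERBB receptors and their ligands, ERBB2 alone is listed. Of 34 symbols of immediate early genes, some of them older names, EGR1 is the single one listed, and FOS, JUNB, IER2, ATF3 and the other EGR genes are not. These symbols may not cover all immediate early genes, so others may be among the listed genes. None of 23 genes of the RAS-ERK cascade, 17 of the PI3K-AKT arm and 24 EGR1 corepressors and targets, NAB1 and NAB2 included, is listed. Of 27 ERK feedback and output genes, which include the phosphatases DUSP4 to DUSP6 and the Sprouty genes, 1 is listed. This was MMP3, which encodes the matrix metalloproteinase stromelysin 1. It was called lower, as were 61.7% of all listed genes, and nothing is read from its direction. Its normalized read count was 47.3, 30.8 and 48.3 in EV and 14.7, 15.6 and 18.6 in S310F replicates 1 to 3, a log2 difference of -1.30 (SE 0.248), the reverse of EGR1. A gene can be missing from the table because it changed by less than the fold limit, because its p-value was above the limit or because the authors left it out of their test, and which of these holds is not known here.

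The neighbours of both genes on the chromosome gave no further values. None of 17 genes around ERBB2 on chromosome 17, such as GRB7 and STARD3, is listed, and the nearest listed gene is the keratin gene KRT16, 1.88 Mb away, with a log2 difference of -1.33. For EGR1 the nearest listed gene is CD14, which encodes a lipopolysaccharide coreceptor, 2.16 Mb away on chromosome 5 with a log2 difference of -1.80. Both were called lower, as were 61.7% of the listed genes, and nothing is read from their direction.

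The deposited table marks 5 of the 107 genes as transcription factors, a grouping taken up after the values were seen. Besides EGR1 these are KLF12, PRDM8, THRB and CERS4. EGR1, KLF12 and PRDM8, the 3 marked as zinc finger proteins of the C2H2 type, were called higher and the other two lower, beside 34.6% and 61.7% of all listed genes, and nothing is read from this grouping. KLF12, a repressor of the Krüppel-like family, went from 70.7 ± 21.7 to 146 ± 5.08 and PRDM8, of the PR domain family, from 66.7 ± 11.0 to 166 ± 25.3 (SD, n = 3 each), with log2 differences of 1.07 and 1.30. THRB, a thyroid hormone receptor, and CERS4, a ceramide synthase with a homeobox-like domain, had log2 differences of -1.32 and -1.09. EGR1 had the largest difference of the 5 in size.

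Likeness to a member was measured as the root mean square difference between profiles of log2(value + 1) over the 6 samples, each centred on its own mean. For EGR1 the most alike gene was PTPN22, at 0.150 against a median of 1.54 for all other listed genes. This distance follows mostly the difference between the groups, by which the table was chosen, so nothing is read from its size. PTPN22, a protein tyrosine phosphatase known from lymphocyte receptor signaling, had values of 79.6, 50.1 and 57.5 in EV and 247, 215 and 178 in S310F replicates 1 to 3, a log2 difference of 1.77 (SE 0.252). As with EGR1, EV replicate 1 was the highest EV sample and S310F replicate 3 the lowest S310F sample. The highest S310F sample differed, replicate 2 for EGR1 and replicate 1 for PTPN22. PTPN22 was picked by its likeness over these same samples, so nothing is read from the shared extremes. The long noncoding RNA LINC01605 (0.262) and SEMA3A, a secreted semaphorin (0.280), came next. LINC01605 rests on few reads, with values of 12.1, 3.85 and 4.11 in EV and 29.4, 28.3 and 19.7 in S310F replicates 1 to 3. SEMA3A was at 24.2, 19.3 and 14.4 in EV and at 71.7, 95.8 and 39.4 in S310F replicates 1 to 3. PTPN22 was the most alike gene in 7 of 8 alternatives and second in the other, without S310F replicate 3, while LINC01605 was among the first 3 in 5 and SEMA3A in 4 of the 8.

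**Figure D5:**
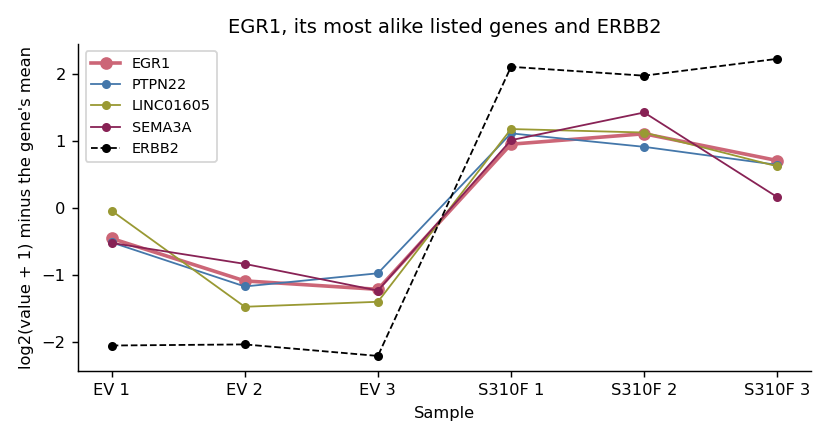
Log2(value + 1) of EGR1, PTPN22, LINC01605, SEMA3A and ERBB2 in each of the 6 samples, minus the gene's own mean over the samples; lines join the points of a gene and imply no order. PTPN22 runs closest to EGR1 (distance 0.150), and ERBB2 (dashed) has the wider step between the groups and not the high EV replicate 1.

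No gene was close to ERBB2, which follows mostly from its difference between the groups being the largest. The nearest were HAS2, a hyaluronan synthase (1.03), STEAP1B, of the STEAP family (1.11), and CNTN1, a cell adhesion molecule (1.12), against a median of 2.68. Their log2 differences of 2.29, 2.07 and 2.15 were well under that of ERBB2, and their S310F values ran in other orders of replicates than ERBB2 for HAS2 (57.9, 35.2 and 37.2) and STEAP1B (96.5, 71.4 and 51.4). For CNTN1 (22.1, 16.6 and 30.6) the order was that of ERBB2, at few reads.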

How the data were processed

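RNA-seq of 6 H1975 samples was used, 3 EV and 3 S310F. The deposited signal of a gene is a read count divided by a size factor, both made by the authors, who sequenced at Novogene and name GRCh38 and hg38 in the submitters' processing notes. Aligner, counter and strand setting are not given in the sources used here. The authors' own log2 fold changes, p-values and group means are also deposited and were not used. Gene coordinates equalled GENCODE release 29 for 107 of 107 genes.

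Groups came from the sample titles. Values were fitted as log2(value + 1) with limma 3.58.1 in R 4.3.3 (moderated variances, Benjamini-Hochberg adjustment over the 107 genes), a fit checked beforehand on simulated data. No gene was filtered, and fold changes on this scale understate those of low genes. A count model was not run, since the fit was planned for values already divided by a size factor. Intervals are 95% Poisson intervals of the recovered reads. BLAST 2.17.0, Python 3.11.15, numpy 2.4.6, pandas 2.3.3, scipy 1.17.1 and matplotlib 3.10.9 were used.

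The members and lists were chosen with earlier results of these data known. Named genes are the members, genes of the lists that are in the table, and the 3 genes most alike to each member. The transcription factors and the nearest listed neighbours were added after the values were seen. Alternatives were pseudocounts of 0.1 and 10, a mean value of at least 50, each sample left out, a replicate block, a mean-variance trend, equal totals without ERBB2 and, added later, recovered reads without a size factor.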

Additional observations from a re-analysis of the deposited data

How the results depend on the processing

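The differences of both members kept their sign in all 12 alternatives. For ERBB2 and for EGR1, 11 of the 12 values moved by less than the replicate SD, and the exception was the rescaling in which the listed genes other than ERBB2 were given equal totals, with 4.64 for ERBB2 and 2.28 for EGR1. That rescaling also left 26 genes called lower, against 66, and moved the median of the listed genes by 0.43. Restricting the table to genes with a mean value of at least 50 left 24 genes called higher, against 37, as fewer genes were tested. With each sample left out, 34 to 41 genes were called higher and 54 to 64 lower. Pairs of S310F replicates in which more ERBB2 went with more EGR1 numbered 0 of 3, and 1 of 3 after the rescaling and in recovered reads without a size factor, alternatives added after the values were seen.

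No pairing of the samples by replicate number was seen, which does not exclude one. Deviations from the group means correlated at 0.0567, 0.0171 and -0.0244 between EV and S310F samples of numbers 1, 2 and 3. Between EV and S310F samples of different numbers they correlated at -0.232 to 0.226. With the replicate block, 37 genes were called higher and 66 lower, and the SE was 0.294 for ERBB2 and 0.300 for EGR1, against 0.204 and 0.263 without it. Depth limits EGR1 more than ERBB2, since EV samples hold 79 to 137 EGR1 reads.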
